A study of Mus musculus with 15 samples.

Results

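Mouse pancreatic tumour cell clones were divided by how accessible the start of Cxcl1 was in their chromatin. The clones were selected on the readout itself: a clone was classed as open where the merged peak over the Cxcl1 start held 10 or more CPM (counts in a peak scaled to the effective size of the library) and as closed below that. Of 13 clones with counts, out of 15 in the series, 6 were open and 7 were closed. The level at that peak therefore only describes the groups, and nothing is tested on it.

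The assay, ATAC-seq, uses a transposase that cuts and tags DNA where chromatin is not tightly packed, and peaks of reads therefore mark accessible sites. Each library came from 50000 tumour cells sorted 3 weeks after 1 clone had been implanted under the skin of C57BL/6 mice, with no treatment in any group. The labels class the clones by the T cell content of their tumours. The open group held 5 T cell low clones (6419c1, 6419c5, 6556c3, 6694c2 and 2699c4) and 1 T cell high clone (6620c1), and the closed group held 5 T cell high clones (6421c2, 2838c3, 7160c2, 6499c4 and 6555c3) and 2 T cell low clones (6499c3 and 6422c1). The other 2 clones, labelled intermediate, were not analysed here. Every library was a single clone, and no clone was measured more than 1 time, so the spread reported below is the spread between clones. The pairs 6419c1 and 6419c5, both open, and 6499c3 and 6499c4, both closed, share the number in their names.

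Cxcl1 encodes a secreted CXC chemokine that attracts neutrophils and related myeloid cells through the receptor Cxcr2. It lies in a cluster with Cxcl2, Cxcl3 and Cxcl5, which encode chemokines acting on the same receptor, and genes of this cluster are classical targets of the transcription factor NF-kappaB after inflammatory signals. In pancreatic tumours, chemokines of this family made by the tumour cells are known to recruit myeloid cells that can restrain T cells.

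The defining peak lay on chromosome 5 (90890833 to 90891740, mm10), 908 bp long, with 412 bp before and 496 bp from the transcription start of Cxcl1 at 90891245 on the plus strand. The groups were formed on the Cxcl1 peak alone, so any contrast with the peaks over the Cxcl2 and Cxcl3 starts was set by the rule. The 250 bases before the starts of Cxcl1 (chr5:90890995-90891244), Cxcl2 (chr5:90903649-90903898) and Cxcl3 (chr5:90785851-90786100) are shown because these 3 promoters share letters. They are plus-strand RefSeq sequences of GRCm38.p6, the assembly that mm10 represents, written 5′ to 3′, with matches to a kappaB motif and to the TATA-like letters ATAAAAG in capitals.
Cxcl1: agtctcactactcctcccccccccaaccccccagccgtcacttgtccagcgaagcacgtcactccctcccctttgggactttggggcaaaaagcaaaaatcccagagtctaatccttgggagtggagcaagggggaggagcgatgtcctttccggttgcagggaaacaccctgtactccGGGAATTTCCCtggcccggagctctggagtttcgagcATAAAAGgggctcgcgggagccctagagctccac
Cxcl2: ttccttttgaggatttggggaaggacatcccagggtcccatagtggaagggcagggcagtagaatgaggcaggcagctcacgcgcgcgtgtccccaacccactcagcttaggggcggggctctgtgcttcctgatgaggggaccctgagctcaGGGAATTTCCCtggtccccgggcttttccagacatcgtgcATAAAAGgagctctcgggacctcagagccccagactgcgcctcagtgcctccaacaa
Cxcl3: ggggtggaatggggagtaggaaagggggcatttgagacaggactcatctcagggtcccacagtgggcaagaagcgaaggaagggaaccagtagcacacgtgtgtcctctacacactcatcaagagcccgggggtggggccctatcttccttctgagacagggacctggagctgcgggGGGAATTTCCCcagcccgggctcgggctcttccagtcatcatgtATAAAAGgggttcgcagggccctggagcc

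All 3 promoters held the same 11 letters, GGGAATTTCCC, which match the kappaB motif on both strands with the 2 matches overlapping. The motif letters were chosen after the sequences had been seen. The matches began 71 bases before the start of Cxcl1, 97 before that of Cxcl2 and 73 before that of Cxcl3, and the ATAAAAG letters began 34, 57 and 29 bases before. A kappaB match on either strand was present in 7.25% of 32851 promoter windows of the same length, and ATAAAAG in 4.83%. The letters of an AP-1 motif, TGANTCA, were in none of these 3 windows and in 6.75% of all windows. Those of a C/EBP motif, TTNNGNAA, were in Cxcl2 alone of the 3 and in 36.9% of all windows. Of the 3, the GC box GGGCGG was in Cxcl2 alone and the E-box CANNTG in Cxcl1 and Cxcl3, against 32.7% and 66.2% of all windows. These matches describe letters in the reference and not binding in the clones. No promoter entry was matched for Cxcl5.

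At the Cxcl1 peak the open clones carried 14.98 to 24.8 CPM and the closed clones 0 to 5.26 CPM. The clones 6419c1 and 6419c5 had the highest levels, at 24.8 CPM (6419c1, 177 counts) and 24.7 CPM (6419c5, 46 counts), followed by 23.2 CPM in 6620c1 (54 counts) and 20.4 CPM in 6556c3 (23 counts). The lowest open clones were 6694c2 at 15.5 CPM (26 counts) and 2699c4 at 14.98 CPM (44 counts). Among the closed clones, 6499c3 was nearest to the 10 CPM line at 5.26 CPM (16 counts). It was followed by 6421c2 at 3.99 CPM (13 counts), 2838c3 at 2.60 CPM (10 counts), 7160c2 at 1.87 CPM (2 counts), 6499c4 at 1.63 CPM (10 counts) and 6422c1 at 1.34 CPM (4 counts). No read was counted in 6555c3, and 3 counts, the limit that a count of 0 allows, would be 1.28 CPM there. The gap between the groups thus lay between 2699c4 and 6499c3, and no clone fell between 5.26 and 14.98 CPM.

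With every read taken as an independent count, the exact Poisson 95% intervals of open clones lay above 10 CPM and those of closed clones below it. The nearest bounds were 10.2 CPM in 6694c2 (interval 10.2 to 22.8) and 8.54 CPM in 6499c3 (interval 3.01 to 8.54). Such intervals cover counting error only, since reads and not molecules were counted. Both ends of a fragment can count in the same peak, so the intervals can be too narrow even for counting error. They therefore cannot settle whether 6694c2 and 6499c3 clear the 10 CPM line beyond counting error. The groups were formed on these same levels, and the intervals only describe them. The means were 20.6 ± 4.44 CPM (SD, n = 6) and 2.38 ± 1.76 CPM (SD, n = 7), 8.65-fold apart. The clones that share a number fell on the same side in both pairs. The plot of CPM at the Cxcl1 start shows these levels with their intervals.

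**Figure D1:**
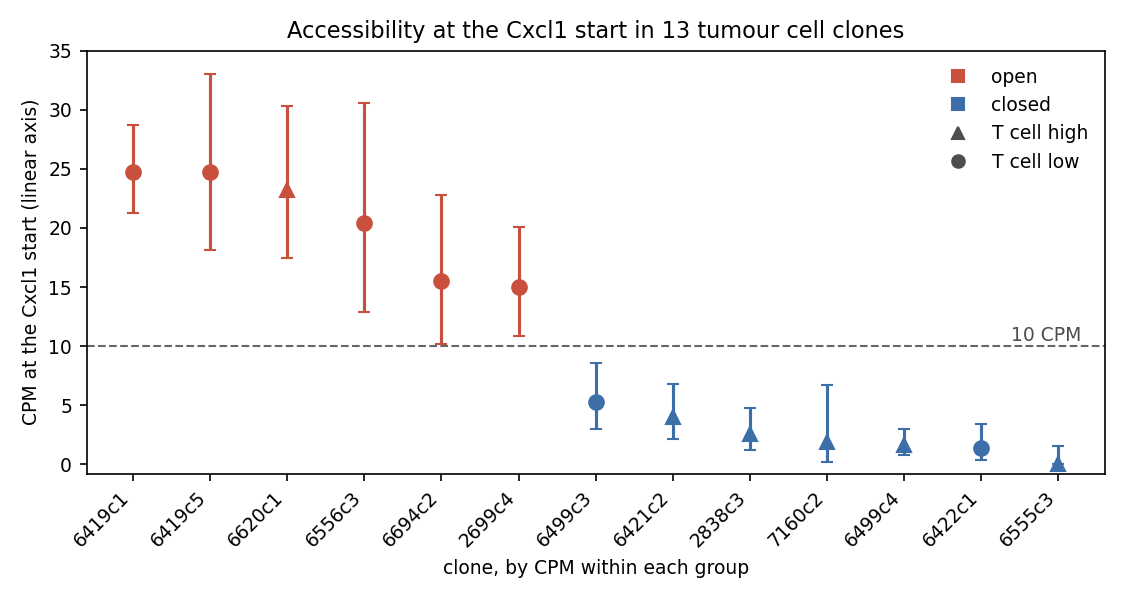
CPM at the peak over the Cxcl1 start in each of 13 clones, with exact Poisson 95% intervals, coloured by group and shaped by T cell label; the dashed line is the 10 CPM threshold. The 6 open clones lie between 14.98 and 24.8 CPM and the 7 closed clones between 0 and 5.26 CPM, and 1 T cell high clone is among the open ones.

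At every other peak of the chemokine cluster the open and closed clones overlapped. The window from 90.7 to 91.0 Mb on chromosome 5 held 29 other listed peaks, which were left out of all tests and are described only. Their log2 ratio of mean CPM, open over closed, had a median of -0.03 and ran from -0.55 to 1.04, with 13 peaks higher and 16 lower in the open clones. The ranges of the groups overlapped at all 29, and 2 of them were more than 1.5-fold apart in their means. Outside the window nearly all peaks overlapped as well. Of 59157 tested peaks, open clones lay above every closed clone at 24 (0.0406%) and below at 22 (0.0372%). Overlap in the window, also at the chemokine starts below, is therefore not particular to the cluster.

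The starts of the neighbouring chemokine genes carried signal in clones of both groups. The 10 CPM line used for Cxcl1 was not applied to them. Some clones lay below that level at each of these starts, and at Cxcl3 the medians of both groups did. At the Cxcl2 start (90902986 to 90904013) open clones had 5.16 to 27.8 CPM (median 11.9) and closed clones 4.23 to 19.5 CPM (median 9.38). Cxcl2 stood highest in 6419c1, which also had the highest Cxcl1 level, but its next highest clones were 2838c3 at 19.5 CPM and 6555c3 at 18.3 CPM, both closed at Cxcl1. The clone 6555c3, with no read at Cxcl1, thus had more signal at Cxcl2 than 5 of the 6 open clones. At the Cxcl3 start (90785567 to 90786251) the ranges were 4.84 to 11.8 CPM (median 7.28) in open and 5.53 to 13.5 CPM (median 8.22) in closed clones. At the Cxcl5 start (90758703 to 90760138) they were 7.15 to 24.7 CPM (median 11.8) and 10.1 to 20.4 CPM (median 12.7). The groups overlapped at all 3 starts.

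Ppbp, Pf4 and Cxcl15, which encode further CXC chemokines of the locus, had no listed peak within 1 kb of their starts. The 2 peaks beyond 1.5-fold were both weak and lay away from gene starts: 7.09 against 3.76 CPM at 58.6 kb before Cxcl1 (90832268 to 90833014) and 3.22 against 1.57 CPM at 86.2 kb after it, inside Mthfd2l (90977343 to 90977640). The strongest peaks of the window, 14.6 kb before Cxcl1 (90875851 to 90877357) and at the start of Mthfd2l, a gene of mitochondrial folate metabolism (90930801 to 90932235), had mean levels of 30.6 against 31.2 CPM and 28.0 against 29.6 CPM. The plot of the window shows the levels of both groups at each peak. The separation at the Cxcl1 peak was set by the rule that formed the groups.

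**Figure D2:**
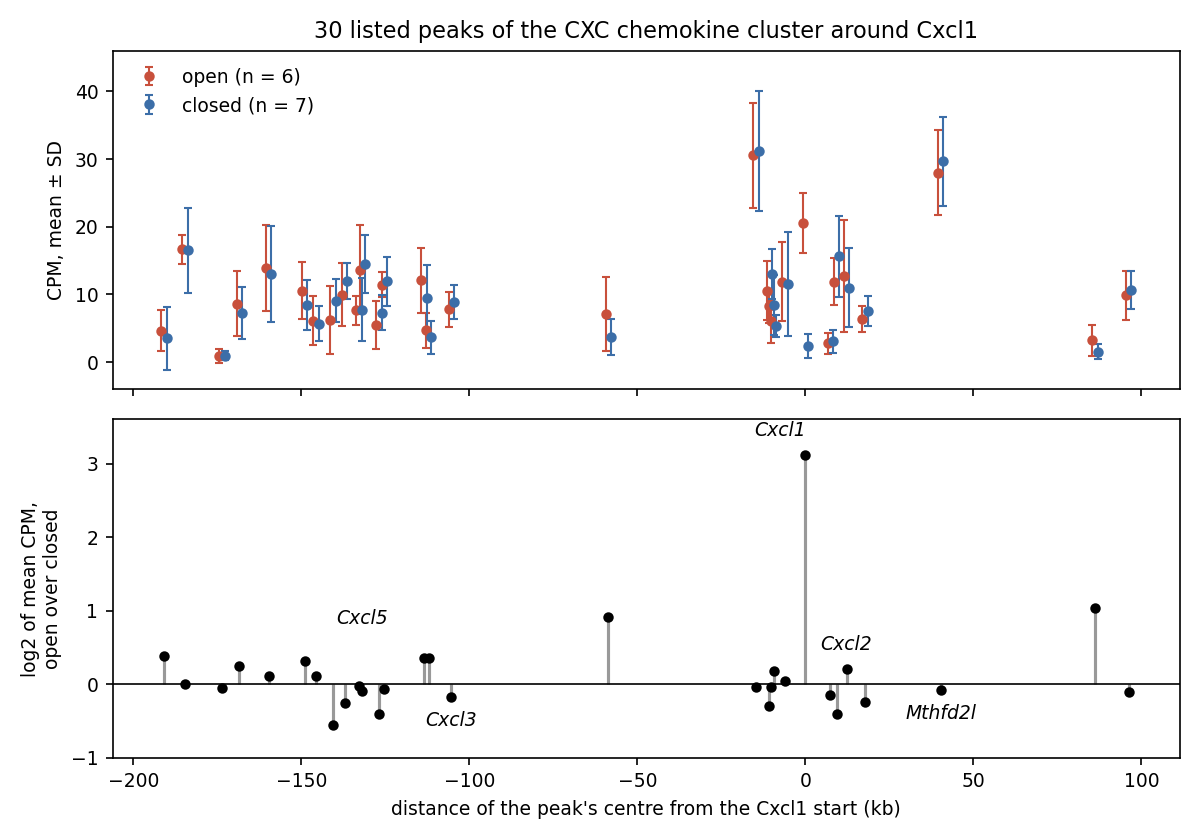
Top, mean CPM ± SD of the 6 open and 7 closed clones at the 30 listed peaks of the window, by distance from the Cxcl1 start in kb (points of the groups are shifted slightly apart); bottom, log2 of the ratio of the means. The Cxcl1 peak, on which the groups were formed, is at 3.11 on the log2 scale, and the other 29 lie between -0.55 and 1.04.

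Depth, regional signal and markers of other cells were compared across the clones. Total counts in peaks ran from 1030616 to 7369228 in open and from 968296 to 5936823 in closed libraries. The log2 total differed by -0.35 between open and closed clones (exact permutation test over 1716 arrangements, two-sided, p = 0.494, adjusted over 3 such tests 0.715). The median log2 CPM deviation of 148 peaks within 2 Mb of the Cxcl1 peak, outside the window, differed by -0.12 (exact permutation p = 0.206, adjusted 0.619) and that of 3617 peaks of chromosome 5 by -0.03 (exact permutation p = 0.715, adjusted 0.715). Their part in the Cxcl1 difference was not tested. Krt8, Krt18, Krt19, Epcam and Cdh1, markers of epithelial tumour cells, had a listed peak at their starts, with summed levels of 84.2 to 145 CPM in open and 76.4 to 205 CPM in closed clones.

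Markers of other cells were mostly without listed peaks, and their sums overlapped between the groups. Of 15 neutrophil markers 2 had a peak at their start (summed to at most 8.85 CPM in open and 8.28 CPM in closed clones), and Ly6g, S100a9, Csf3r and Cxcr2 had none. Of 18 macrophage markers 6 had one (62.9 to 115 against 73.2 to 132 CPM), and Csf1r, Adgre1 and Lyz2 had none. Of 16 pan-leukocyte markers 10 had one (93.0 to 133 against 61.3 to 115 CPM), and of 24 T and NK cell markers 4 had one (55.8 to 113 against 73.6 to 135 CPM), with none at Cd3e, Cd8a or Gzmb. For fibroblast, endothelial and acinar or islet markers the numbers were 3 of 15 (31.8 to 53.1 against 33.2 to 52.7 CPM), 3 of 14 (23.9 to 62.3 against 24.3 to 94.8 CPM) and 4 of 18 (53.3 to 96.4 against 51.8 to 85.1 CPM). Sox17, an endothelial and endoderm transcription factor gene, was the member furthest apart between the groups (log2 fold change -1.85, SE 0.80). The part of such cells in the Cxcl1 difference was not tested, and in these bulk libraries fewer cells with an open promoter and less signal per cell cannot be told apart.

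Outside the window, 59157 peaks were tested for a difference between open and closed clones, and none passed. By edgeR's quasi-likelihood test with Benjamini-Hochberg adjustment 0 peaks were called at 0.05 (0%), and the smallest adjusted p was 0.999997. DESeq2 and limma-voom also called 0, with smallest adjusted p values of 0.12 and 0.927. At an unadjusted p under 0.05 there were 1913 peaks (3.23%), 989 higher and 924 lower in open clones, and among 11100 tested peaks at gene starts 354 (3.19%). DESeq2 gave 2327 and limma-voom 3100 such peaks. Every open clone lay above every closed clone at 24 tested peaks (0.0406%) and below at 22 (0.0372%). No gene or group named below therefore passed the test over all peaks, and the values that follow are descriptions of where the clones differed most.

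The widest ratios of mean CPM, open over closed, among the tested peaks lay around Myc on chromosome 15, an oncogenic transcription factor gene. They rested on 1 open clone, 2699c4, which carried 2414 CPM at the Myc start against 38.7 to 117 CPM in the other 12 clones. Of 117 tested peaks within 2 Mb of Myc, 52 had an unadjusted p under 0.05 with 2699c4 and 3 without it.

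Of the 10 peaks with the smallest p among those higher in the open clones, 4 lay in this Myc region. Those 4 had no protein-coding gene within 50 kb, and genes of other kinds were not considered. Their log2 fold changes were at most 3.54 with 2699c4 and at most 1.17 without it. The other 6 were spread over chromosomes 18, 15, 3, 14 and 4. At the start of Cxxc5, which encodes a CXXC zinc finger protein of WNT and BMP signalling (chromosome 18, 35829503 to 35830741), open clones had 7.53 to 38.1 CPM (median 25.2) and closed clones 5.59 to 11.9 CPM (median 9.71). Of the open clones only 6419c5 fell within the closed range. The log2 fold change was 1.41 (SE 0.32), with an adjusted p of 0.999997 by edgeR. A neighbouring peak, nearest to Ube2d2a, a ubiquitin-conjugating enzyme gene (chromosome 18, 35814597 to 35815938), had 10.2 to 41.7 CPM (median 25.6) in open and 2.34 to 17.03 CPM (median 7.79) in closed clones, a log2 fold change of 1.76 (SE 0.40).

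Inside Elfn2, which encodes a transmembrane protein phosphatase regulator (chromosome 15, 78673321 to 78673996), every open clone lay above every closed clone, at 6.81 to 22.2 CPM (median 9.51) against 1.97 to 5.36 CPM (median 3.41), a log2 fold change of 1.71 (SE 0.39). The same separation held inside Glipr2, an autophagy regulator gene (chromosome 4, 43971879 to 43972624), at 5.38 to 18.3 CPM (median 9.62) against 2.01 to 5.11 CPM (median 3.61), a log2 fold change of 1.56 (SE 0.39). Next to Znhit6 (chromosome 3, 145614286 to 145615114, 9041 bp from the gene) open clones had 14.6 to 26.6 CPM (median 22.8) and closed clones 2.98 to 15.9 CPM (median 8.54), overlapping by 2699c4 and 7160c2. The remaining peak, on chromosome 14 (114840771 to 114841377), had no protein-coding gene within 50 kb and a log2 fold change of 2.07 (SE 0.49).

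Among the 9 peaks reported of those with the smallest p and lower values in open clones were 2 gene starts. Myh10, which encodes a non-muscle myosin heavy chain (chromosome 11, 68691284 to 68692528), had 6.57 to 32.7 CPM (median 22.4) in open and 22.4 to 92.0 CPM (median 59.2) in closed clones, a log2 fold change of -1.39 (SE 0.34). The groups overlapped at Myh10 through 6422c1 alone, the closed clone with 22.4 CPM. The shared start of Lonp1, a mitochondrial protease gene, and Catsperd (chromosome 17, 56626397 to 56627728) had 30.1 to 42.5 CPM (median 34.9) against 43.4 to 89.4 CPM (median 55.3) with no overlap, a log2 fold change of -0.77 (SE 0.20). Peaks in or nearest to Srbd1 (-1.61), Bmpr2, a BMP receptor gene (-1.72), Lrig3, a receptor regulator gene (-2.10), Arhgef33 (-2.10) and Ankrd12 (-1.11) followed, all as log2 fold changes. The other 2 peaks, on chromosome 9, had no protein-coding gene within 50 kb and log2 fold changes of -1.09 and -1.78.

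Of these 19 peaks, 4 separated the groups completely, 2 higher and 2 lower in open clones. In the fit with the T cell label as a covariate the 15 peaks outside the Myc region kept their sign. The log2 fold changes were 2.38 at the Ube2d2a peak, 1.56 at Cxxc5, 1.60 at Elfn2, 1.65 at Glipr2, -1.30 at Myh10 and -0.85 at Lonp1. The peaks had been picked for a small p in these same clones. A kept sign was therefore likely in advance and does not test whether they depend on the label. With offsets for the median signal of the surrounding 2 Mb the values at Lonp1 and at the first chromosome 9 peak were -0.48 and -0.71, over 1.5 times nearer to 0. The map of these peaks by clone shows the Myc region peaks highest in 2699c4 and the others spread over several open clones.

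**Figure D3:**
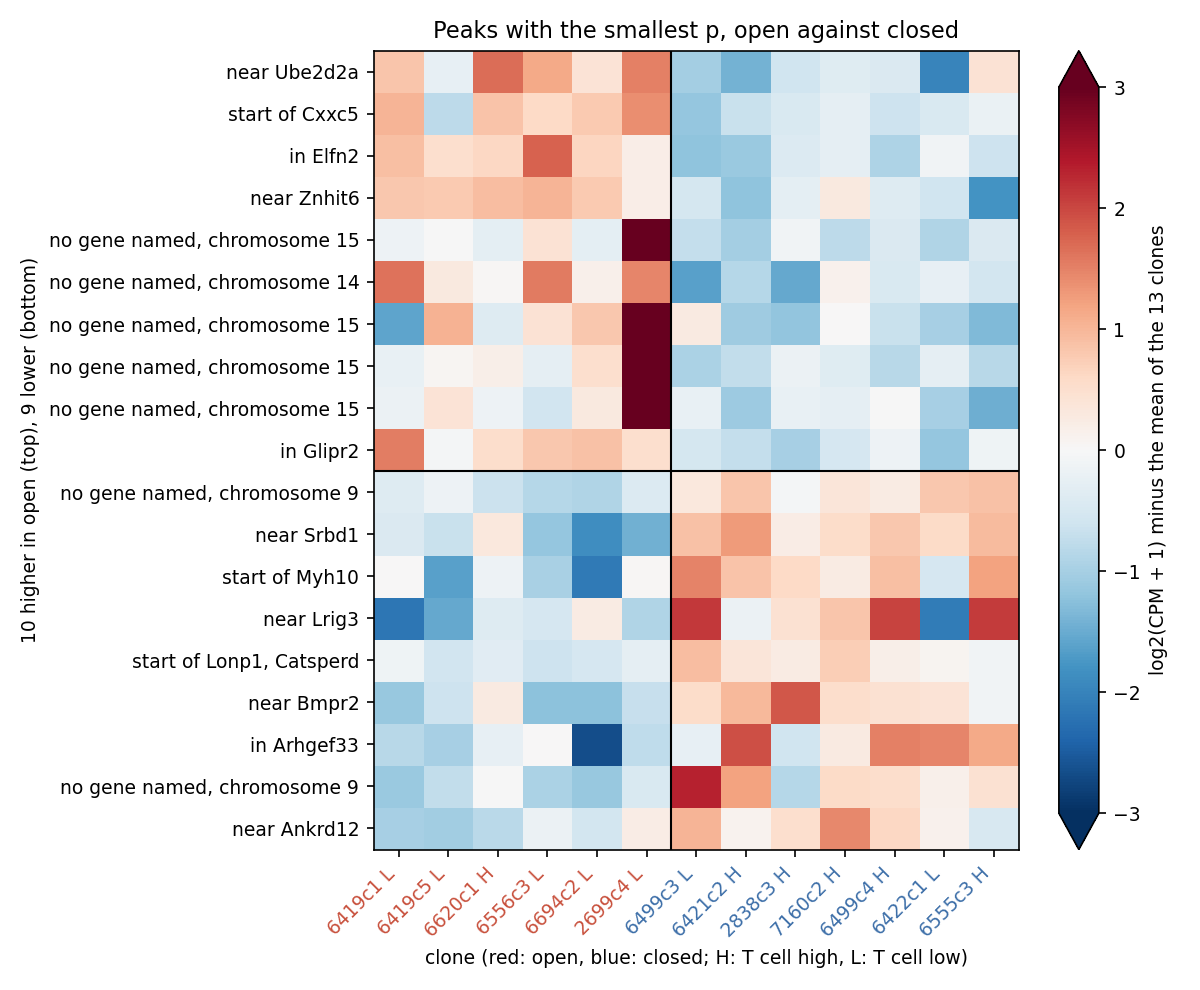
Accessibility as log2(CPM + 1) minus the mean of the 13 clones at 10 higher and 9 lower peaks among those with the smallest p; columns are clones, open on the left and closed on the right, with H for T cell high and L for T cell low. The 4 chromosome 15 peaks with no named gene are highest in 2699c4, and 4 of the 19 rows separate the groups completely.

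Among all 46 non-overlapping peaks, 7 lay at gene starts, which were picked out after their values were seen. The 2 at which open clones were above were Prkg2, a cGMP-dependent protein kinase gene (chromosome 5, 99036581 to 99037495, 7.49 to 16.7 against 0.613 to 7.47 CPM, log2 fold change 1.59, SE 0.48), and Tph2, a serotonin synthesis enzyme gene (4.30 to 6.45 against 0 to 4.02 CPM, 0.83, SE 0.44). The 5 at which open clones were below were Lonp1 with Catsperd, given above, Usp2, a deubiquitinase gene (3.23 to 10.2 against 13.1 to 16.7 CPM, -1.06, SE 0.31), Slc25a23, a mitochondrial carrier gene (35.9 to 53.9 against 58.8 to 91.4 CPM, -0.59, SE 0.18), Edn1, which encodes the vasoconstrictor peptide endothelin 1 (9.68 to 19.7 against 21.0 to 31.7 CPM, -0.70, SE 0.25), and the shared start of Psenen and U2af1l4 (15.1 to 23.8 against 24.4 to 43.9 CPM, -0.52, SE 0.23). The Slc25a23 start (chromosome 17, 57060151 to 57061061) lay close to that of Lonp1, so the 2 may not be separate loci. Usp2 lay on chromosome 9 (44084404 to 44085192). Values with regional offsets are not given here for Slc25a23 or Usp2. Gene starts made up 11100 of all 59157 tested peaks. None of the 7 belonged to a chemokine gene. With so few chemokine starts among those tested, that absence carries no information.

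Chemokine, cytokine and receptor genes outside the cluster were read at the strongest peak within 1 kb of each start. Where no promoter entry gave the start, as for Ccl2, Ccl7, Il15, Cxcl16 and Cxcl17, either end of the gene was used. Such peaks are also called starts here. Of 24 listed myeloid-recruiting or myeloid growth factor genes, 17 could be tested: 0 passed, 5 were higher and 12 lower in open clones (70.6% lower, beside 63.1% of all gene-start peaks), and the median log2 fold change was -0.16, beside -0.07 for all gene-start peaks. The 2 with the smallest p were neighbours on chromosome 11 and encode chemokines that attract monocytes through the receptor Ccr2. At the Ccl7 start (82045476 to 82046086) open clones had 3.44 to 8.86 CPM (median 5.84) and closed clones 0 to 4.67 CPM (median 1.64). Only 2838c3 of the closed clones reached the open range. The log2 fold change of Ccl7 was 1.63 (SE 0.53), with an unadjusted p of 0.00561 and an adjusted p of 0.999997 by edgeR's quasi-likelihood test.

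At the Ccl2 start (82035143 to 82035837) open clones had 3.06 to 21.5 CPM (median 8.44) and closed clones 0 to 8.94 CPM (median 4.69), a log2 fold change of 1.04 (SE 0.51), with broad overlap. Ccl2 stood highest in 6419c1, like Cxcl1 and Cxcl2. With the T cell label as a covariate the values were 1.74 for Ccl7 and 1.21 for Ccl2. Within the T cell low clones, 5 open against 2 closed, they were 2.42 and 1.59. Both genes had been named for a small p in these same clones, so a kept sign was likely in advance. Without 6419c1 the value for Ccl2 was 0.56. These starts were weak: no clone had more than 8.86 CPM at Ccl7, and in the shallowest library 3 counts are worth 2.80 CPM.

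The 6 measured CXC chemokine and receptor genes elsewhere were near 0 apart from Cxcr4. The start of Cxcr4, the receptor of Cxcl12 (chromosome 1, 128591899 to 128592749), had 4.77 to 12.4 CPM (median 8.74) in open and 2.01 to 13.1 CPM (median 3.68) in closed clones, a log2 fold change of 0.94 (SE 0.46). The highest clone at Cxcr4 was a closed one, 7160c2. Cxcl10, an interferon-induced chemokine that attracts T cells, had a log2 fold change of 0.18 (SE 0.30), and Cxcl16, Cxcl17, Cxcl13 and the scavenger receptor Ackr3 had -0.12, 0.07, -0.07 and 0.03, all 4 of which changed sign under other settings. Cxcr2, Cxcr1, Cxcr3, Cxcr5, Cxcr6, Cxcl9, Cxcl11, Cxcl12 and Cxcl14 had no listed peak at their starts. Of 5 measured T cell and dendritic cell factors, Il15, a survival cytokine of memory T and NK cells, was at -0.56 (SE 0.27, 37.2 ± 12.1 CPM, SD, n = 6, against 54.7 ± 22.4 CPM, SD, n = 7) and Il18 at -0.57 (SE 0.35). With regional offsets Il15 was at -0.36 and Il18 at -0.34, and Il15 was at -0.37 without 6421c2. The plot of 8 gene starts by clone sets Ccl7 beside starts that differed less.

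**Figure D4:**
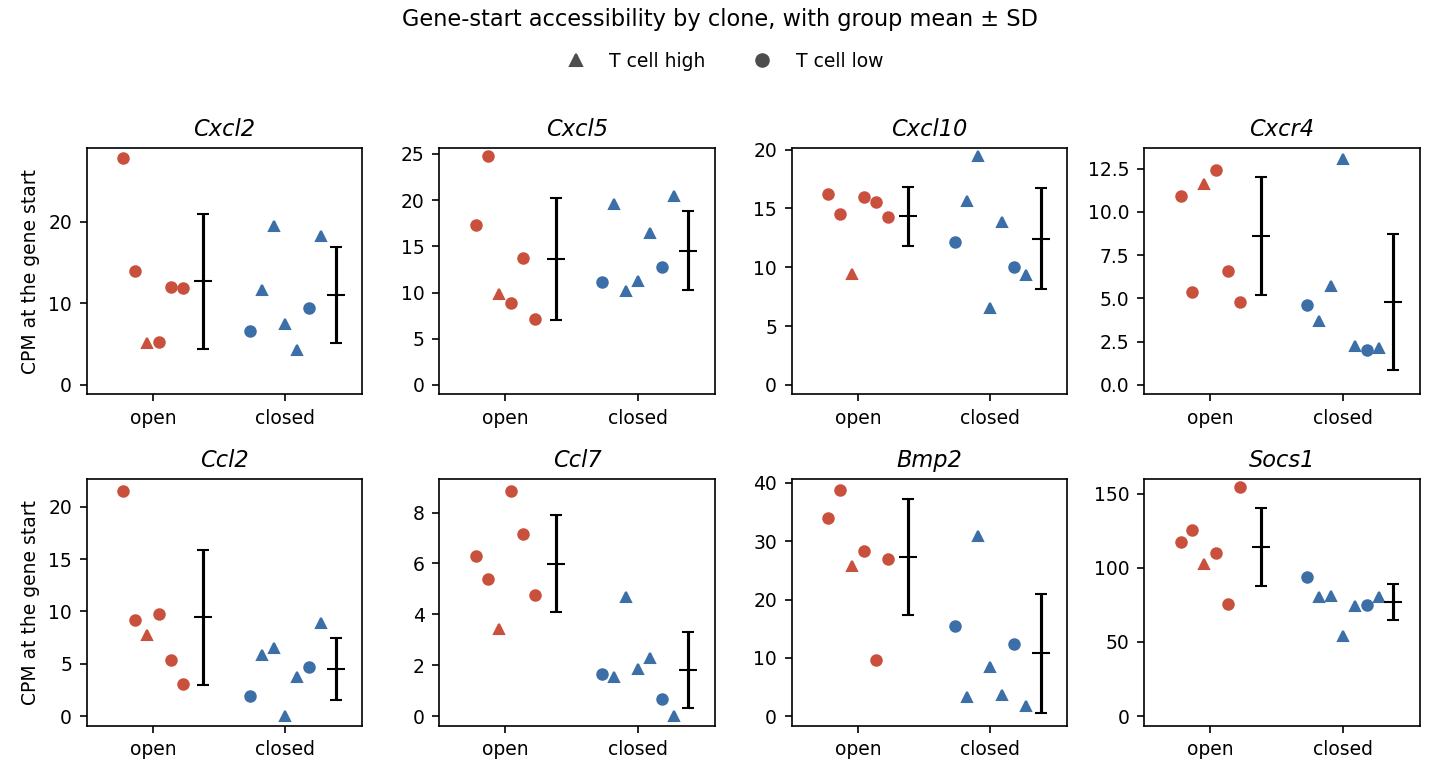
CPM at 8 gene starts in each clone of the open (red, n = 6) and closed (blue, n = 7) groups, triangles for T cell high and circles for T cell low, with the mean ± SD beside each group; each panel has its own linear axis. At Ccl7 1 closed clone reaches the open range, at Cxcl2 and Cxcl5 the groups overlap throughout.

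Regulators that act on CXC chemokine genes were measured at their own starts. Of 40 NF-kappaB pathway genes 38 were tested, with 0 called, 13 higher and 25 lower in open clones (65.8% lower, beside 63.1% of all gene-start peaks) and a median log2 fold change of -0.05. Cyld, a deubiquitinase that restrains NF-kappaB signalling, was the single member with an unadjusted p under 0.05, with 106 to 147 CPM (median 135) in open and 119 to 373 CPM (median 150) in closed clones. Its log2 fold change was -0.49 (SE 0.22) and -0.21 at the nearest to 0 when 1 clone was left out, the highest clone being 6421c2 at 373 CPM. Birc2, which encodes an inhibitor of apoptosis protein in the same pathway, was at -0.55 (SE 0.27) and at -0.24 with regional offsets. The sign of Birc2 changed, to 0.03, with the threshold at 5 CPM, which moves 6499c3 to the open group.

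Of 15 C/EBP and STAT3 pathway genes all 15 were tested, with 0 called and a median of -0.13. The smallest p values there were those of Lifr, the receptor of leukaemia inhibitory factor, at -0.48 (SE 0.26), and Cebpd, an acute phase transcription factor gene, at 0.34 (SE 0.21), or 0.01 with regional offsets. Among 28 tested AP-1 and MAPK genes 2 had an unadjusted p under 0.05: Myc at 2.78 (SE 0.79), which was -0.32 without 2699c4, and the MAPK phosphatase gene Dusp1 at -0.47 (SE 0.22), which was -0.27 with regional offsets and -0.08 at the 5 CPM threshold. The median of that list was -0.04.

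Interferon pathway genes had a median of 0.06 over 21 tested members, 11 higher and 10 lower, with 0 called. Socs1, a feedback inhibitor of cytokine receptors, had 75.3 to 155 CPM (median 114) in open and 54.1 to 94.0 CPM (median 80.0) in closed clones. All but 1 of the open clones, 6694c2, lay above every closed clone at Socs1, and its log2 fold change was 0.57 (SE 0.18), with an unadjusted p of 0.00403 and an adjusted p of 0.999997 by edgeR. The interferon gamma receptor gene Ifngr2 was at 0.51 (SE 0.23). Both genes lie on chromosome 16, as does Cd47, a ligand that inhibits phagocytosis, at 0.38 (SE 0.17), the only one of 12 tested checkpoint genes with an unadjusted p under 0.05. With offsets for the median signal of the surrounding 2 Mb these became 0.23 for Socs1, 0.20 for Ifngr2 and -0.01 for Cd47, more than 1.5 times smaller.

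Epithelial identity genes mostly had lower values in open clones. Of 27 tested members 25 were lower and 2 higher (92.6% lower, beside 63.1%), the median log2 fold change was -0.28 beside -0.07, and 0 were called. Cldn3, a tight junction claudin gene, was furthest from 0 at -1.78 (SE 0.69), with 2.94 to 15.1 CPM (median 7.70) in open and 1.64 to 72.8 CPM (median 23.9) in closed clones. The closed clones were split at Cldn3: 7160c2, 6555c3, 6499c4 and 6421c2, all T cell high, had 23.9 to 72.8 CPM, and 6422c1, 2838c3 and 6499c3 had 1.64 to 3.35 CPM. With the T cell label as a covariate Cldn3 was at 0.38 and within T cell low clones at 1.54, and the comparison by T cell label alone gave 2.65 (T cell high over low). Epcam, an epithelial adhesion gene, and Esrp1, an epithelial splicing regulator gene, also changed sign with the covariate, from -0.81 to 0.36 and from -0.87 to 0.72, as did Cldn4 (-0.32 to 0.71) and the protease gene St14 (-0.44 to 0.64), named here after their values were seen. The median of the epithelial list was -0.20 with the covariate, beside -0.14 for all gene-start peaks in that fit, and 0.16 by T cell label, beside -0.06. Ap1m2, an epithelial sorting adaptor gene, was at -0.72 (SE 0.40), at -0.44 with regional offsets, at -0.46 without 6499c3 and at -0.04 at the 5 CPM threshold.

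Mesenchymal genes had a median of -0.02 over 19 members, with Col6a1 at 0.70 (SE 0.38) and Snai2, a transcription factor of epithelial to mesenchymal transition, at 0.44 (SE 0.29), or 0.20 with regional offsets. Endoderm genes had a median of -0.15 over 19 members. The nuclear receptor gene Hnf4g was at 0.95 (SE 0.35), with 13.3 to 40.9 CPM (median 23.6) in open and 5.19 to 22.1 CPM (median 10.1) in closed clones, and Anxa10 at -0.52 (SE 0.27). With regional offsets Hnf4g was at 0.46, over 1.5 times smaller. Basal and squamous genes had a median of -0.19 over 6 members. The plot of gene lists shows their members around the median of all gene-start peaks.

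**Figure D5:**
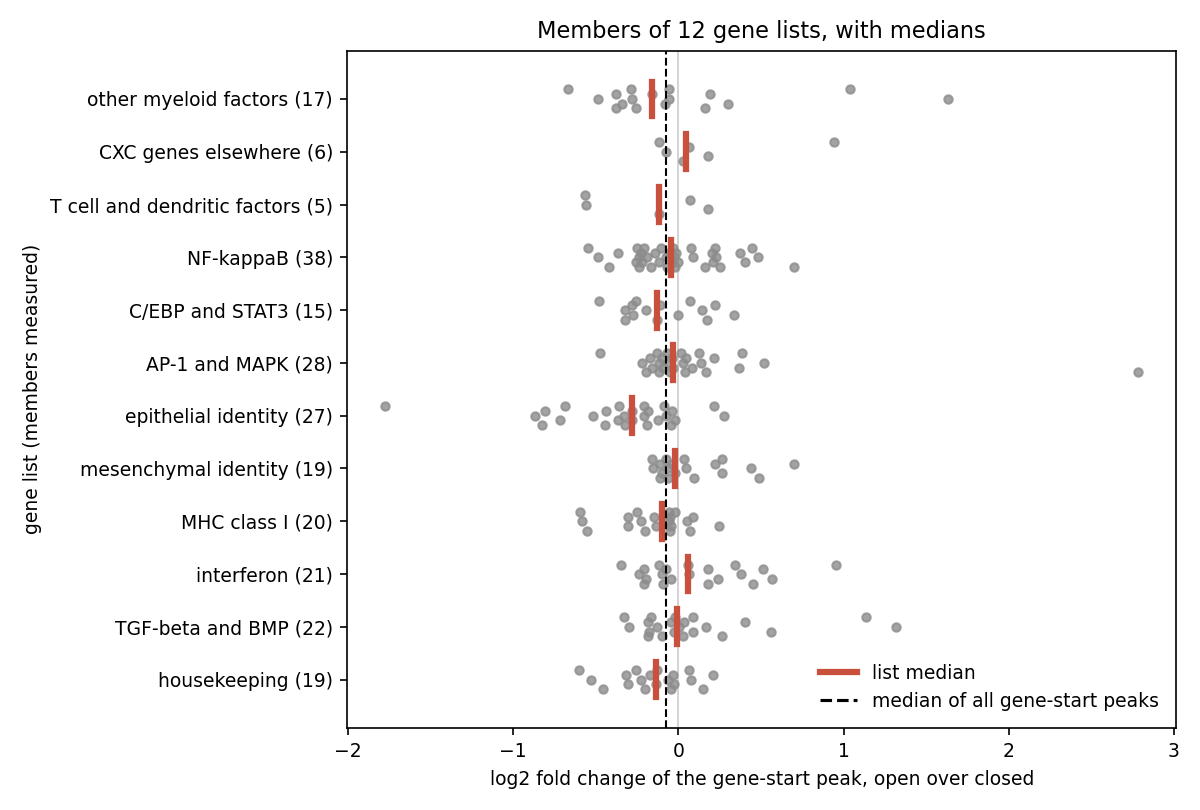
Log2 fold change, open over closed, of the gene-start peak of every measured member (grey points) of 12 gene lists, with list medians (red) and the median of all gene-start peaks (dashed line, -0.07). The epithelial list has 25 of 27 members below 0, and Ccl7 and Myc are the rightmost points of the myeloid and the AP-1 and MAPK lists.

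Among 22 tested TGF-beta and BMP genes, with a median of -0.01, the ligand genes Bmp2 and Bmp4 were furthest from 0. Bmp2 had 9.56 to 38.7 CPM (median 27.6) in open and 1.70 to 30.9 CPM (median 8.40) in closed clones, a log2 fold change of 1.32 (SE 0.48), and Bmp4 had 1.70 to 14.7 CPM (median 9.03) against 0.67 to 8.78 CPM (median 3.12), a log2 fold change of 1.14 (SE 0.54). Apart from 6694c2 among the open and 2838c3 among the closed clones, every open clone lay above every closed clone at Bmp2. Neither passed the test over all peaks. With the T cell label as a covariate Bmp2 and Bmp4 were at 1.14 and 1.35, but both had been named for a small p in these same clones.

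Prostaglandin and EphA2 genes had a median of -0.17 over 12 members, with Ptger4, a prostaglandin E2 receptor gene, at -0.55 (SE 0.22) and Efna5 at -0.42 (SE 0.18). MHC class I genes had a median of -0.10 over 20 members, with Nlrc5, their transactivator, at -0.55 (SE 0.34) and H2-T23 at -0.60 (SE 0.37). Nlrc5 was at -0.26 with the T cell label as a covariate, -0.35 with regional offsets and -0.24 without 6421c2, and H2-T23 at -0.40 with regional offsets. Checkpoint genes had a median of -0.12 over 12, WNT genes -0.07 over 18, and hypoxia and glycolysis genes -0.10 over 23. Housekeeping genes, which no comparison was meant to separate, had a median of -0.14 over 19, with 15 lower in open clones (78.9%, beside 63.1% of all gene-start peaks). Of these 19 genes 3 had an unadjusted p under 0.05, beside 3.19% of all gene-start peaks. Among the 3 were Tubb5 at -0.46 (SE 0.22) and Rps18 at -0.60 (SE 0.29). With regional offsets Tubb5 was at -0.25 and the prostaglandin list's Efna5 at -0.10. A median of that size was thus also reached by a list with no link to chemokines. No member of any list was called by edgeR's quasi-likelihood test at an adjusted 0.05.

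The T cell label was compared on the same peaks and the same 13 clones, so that this comparison shares all its libraries with that of open against closed clones. By edgeR 0 of 59157 peaks were called for T cell high against T cell low (smallest adjusted p 0.124) and 4032 (6.82%) had an unadjusted p under 0.05, beside 1913 for the Cxcl1 groups. DESeq2 called 45 for the T cell label and limma-voom 0, and edgeR called 39 without 2838c3. With the Cxcl1 group as a covariate the T cell label gave 0 calls and 3710 peaks at an unadjusted p under 0.05. With the T cell label as a covariate the Cxcl1 groups gave 0 calls and 1886 such peaks. Within the T cell low clones, 5 open against 2 closed, 0 peaks were called, the smallest adjusted p was 0.421, and 3034 had an unadjusted p under 0.05.

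The 3 clones that go against the main pattern of label and Cxcl1 were 6620c1, T cell high with 23.2 CPM at Cxcl1, and the T cell low clones 6422c1 and 6499c3 with 1.34 and 5.26 CPM. At the Ccl7 start 6620c1 had 3.44 CPM, the lowest of the open clones, and 6422c1 and 6499c3 had 0.67 and 1.64 CPM, within the closed range. Over all tested peaks, Pearson's r of log2 CPM between clones had a median of 0.70 for pairs of open clones (15 pairs), 0.71 for pairs of closed clones (21 pairs) and 0.72 for pairs of 1 open and 1 closed clone (42 pairs), as a description across peaks that share depth and base composition. The pair 6419c1 and 6419c5 had an r of 0.81 and the pair 6499c3 and 6499c4 an r of 0.77. By this measure, which was not adjusted for the differing depth of the libraries, clones of the same Cxcl1 group were on average no more alike than clones of different groups.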

How the data were processed

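The authors deposited raw counts for 67945 merged peaks, made with featureCounts 1.5.3 without options for read pairs or strand, per the file headers. The same headers name alignments without duplicates. Per the submitters' processing notes, the build is mm10 and DESeq2 was used. Not given in the sources used here are the aligner, the peak caller, the merging rule and any read shift. Both ends of a fragment can count in 1 peak.

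The members and gene lists were chosen with earlier results of these data known. Libraries were scaled once by TMM over all peaks in R 4.3.3 with edgeR 4.0.16, and CPM and groups came from these sizes. Of the 30 window peaks none was tested. After filterByExpr by group, 59157 peaks entered edgeR's quasi-likelihood test (glmQLFTest, two-sided), and p-values were adjusted by Benjamini-Hochberg over all of them (threshold 0.05). Fold changes are log2 of open over closed. The prior count of log2 CPM was 2. DESeq2 1.42.0 and limma 3.58.1 (voom) were alternatives among 23. The test was checked on simulated data. Starts of 17492 of 21900 protein-coding genes came from RefSeq promoter entries (GRCm38.p6). For the rest either end of the gene was used and is called a start here. A gene was read at its strongest peak within 1 kb (12508 genes). Of 516 listed genes 352 were measured. Named were the 10 higher and 10 lower peaks with the smallest p, the 2 members of each list with the smallest p, members of the myeloid, NF-kappaB and C/EBP lists with an unadjusted p under 0.05, all measured CXC genes and the window's peaks, apart from 1 gene that is not reported here. Replicate numbers are names only. Labels give 1 library per clone, so p-values measure the spread between clones. Motif searches over peaks and GC content were not run here.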

Additional observations from a re-analysis of the deposited data

Results flagged for a closer look

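Of 154 groups of clones examined over 77 measures, 16 had a lowest or highest clone far from the others of its group. Chance gives this in about 1 in 20 groups. The open clone 2699c4 stood highest in its group at the Myc start with 2414 CPM and at 3 peaks of the same region with 376, 159 and 329 CPM, and lowest at the peak near Znhit6 with 14.6 CPM. The open clone 6419c5 stood lowest at Cxxc5 (7.53 CPM) and Lifr (17.7 CPM). The open clone 6694c2 stood lowest at Bmp2 (9.56 CPM) and at the peak in Arhgef33 (0 CPM, where 3 counts allow up to 1.79 CPM), and the open T cell high clone 6620c1 at Cxcl10 (9.46 CPM).

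Among the closed clones, 7160c2, the shallowest library, stood lowest at Socs1 (54.1 CPM), Cd47 (57.9 CPM) and Ackr3 (0 CPM, where 3 counts allow up to 2.80 CPM). The clone 6421c2 stood highest at Cyld (373 CPM) and lowest at Bhlha15 (0 CPM, where 3 counts allow up to 0.92 CPM), and 6555c3 stood lowest at Mertk (10.2 CPM).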

How the results depend on the processing

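Under all 23 alternatives 0 peaks were called between open and closed clones. The number at an unadjusted p under 0.05, 1913, was 3100 with limma-voom, 3034 within T cell low clones and 1571 to 3022 when 1 clone was left out (3022 without 2838c3). The lowest number among the 23 alternatives was 1473 (2.49%), with clones of 1 shared number summed. For the T cell label, DESeq2 called 45 peaks and edgeR 0 to 39 when 1 clone was left out. Over 73 named peaks, 1630 of 1679 values kept their sign and 49, in 16 peaks, did not. Of 575 list medians, 10 moved by more than the spread between clones.

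The log2 fold changes that changed sign were these. With the T cell label as a covariate Cxcl13 was at 0.60, Ackr3 at -0.11, Cldn3 at 0.38, Lamb3 at 0.0019, Egfl7 at -0.26 and Cela1 at -0.0036. Within T cell low clones Cxcl16 was at 0.047, Cxcl17 at -0.31, Cxcl13 at 0.62, Ackr3 at -0.19, Cldn3 at 1.54, Lamb3 at 0.16, Cd53 at -0.26, Aif1 at 0.040 and Postn at 0.17. At the 5 CPM threshold Birc2 was at 0.031, Pkm at 0.00299, Acta2 at -0.082 and Cela1 at -0.14. With regional offsets Cxcl13 was at 0.10, Cd47 at -0.0100 and Acta2 at -0.012. With clones of 1 shared number summed Ackr3 was at -0.026 and Cela1 at -0.070, against the continuous level of Cxcl1 (change per doubling) Ackr3 was at -0.010 and Cela1 at -0.051, and with limma-voom Egfl7 was at -0.012 and Cela1 at -0.10. Leaving out 1 clone gave ranges of -0.24 to 0.16 for Cxcl16, -0.027 to 0.21 for Cxcl17, -0.36 to 0.20 for Cxcl13, -0.16 to 0.13 for Ackr3, -0.32 to 3.02 for Myc (-0.32 without 2699c4), -0.45 to 0.014 for Postn, -0.032 to 0.40 for Egfl7 and -0.071 to 0.20 for Cela1. The cause was not tested. No paired analysis was possible because numbers within the groups follow accession order and the labels name no pairs. Counting limits the weakest starts: 3 counts were worth 0.42 to 2.80 CPM.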
